A study of Mus musculus with 6 samples.

Results

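The insulin-like growth factor (IGF) system was read across 4 kinds of mouse cells through 10 genes: the ligands Igf1 and Igf2, the receptor Igf1r, the binding proteins Igfbp2, Igfbp3, Igfbp4, Igfbp5, Igfbp6 and Igfbp7, and the protease Pappa. The members were chosen by name, with earlier results of these data known. Every probe set that the platform annotation assigns to 1 of these genes alone was used, 29 probe sets in all. The 10 genes are part of 18193 named genes on the array. A gene was read by the probe set whose log2 values averaged highest over the 6 arrays (its representative probe set), and the other probe sets are given beside it.

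Total RNA was hybridised to 1 expression array per sample. BMDC, dendritic cells derived from bone marrow, were measured on 2 arrays, and follicular dendritic cells (FDC) cultured in vitro on 2 arrays. FL-Y, an FDC-like cell line transformed with SV40, was measured on 1 array without treatment and on 1 array after activation with an antibody to the lymphotoxin beta receptor. The labels give no strain, age, culture time, antibody dose or number of animals, and nothing in them says that arrays of 1 group came from separate cultures, so a p-value here reflects no more than the spread of these arrays, and that spread may be technical. FL-Y is a single transformed line, and no untransformed counterpart or control antibody is among the samples.

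IGF1 and IGF2 are secreted hormones that signal growth and survival through the tyrosine kinase IGF1R. Outside the cell they are held by IGF-binding proteins, which lengthen their life in the circulation, keep them from the receptor or deliver them to it, and proteases such as PAPP-A cut some binding proteins and set the ligand free. Connective tissue cells and macrophages are known sources of Igf1, and Igf2 is an imprinted fetal growth factor.

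Signals are in the linear units of the deposited table, in which every array has the same trimmed mean. The 20th percentile of an array, 8.7 to 15.4 signal units, served as a mark of background level, not as a limit of detection. The labelled cell types were checked against marker lists. Summed over 10 fibroblast markers, the signal was 2892 and 1920 in BMDC, 271329 and 172464 in FDC, 167342 in FL-Y and 124089 in activated FL-Y. Of 10 dendritic cell and macrophage markers 9 fell in FDC with limma. Of 10 FDC markers 0 rose and 3 fell, and Cr2, a defining gene of FDC, was at 119.5 and 4.1 in FDC and at 59.1 and 71.1 in BMDC. In the same list the adhesion molecule Vcam1 was at 6959 and 5764 in FDC and 108 and 875 in BMDC without a call (limma adjusted p = 0.0566), and the chemokine Cxcl13 was at 1288 on FDC array 1 and 64.5 on FDC array 2. The name FDC is therefore used as the label gives it. Among markers of other cells, 4 of 6 mast cell markers and 3 of 5 T cell markers rose in FDC. Over all genes tested, 5.87% were called higher in FDC and 5.4% lower. In cell mixtures, fewer cells of a type and less RNA per cell cannot be told apart.

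The sequences just before the start sites of 4 binding protein genes are shown because these genes gave the clearest differences between the cells: Igfbp3, Igfbp6 and Igfbp7 were higher in FDC than in BMDC, and Igfbp2 was high in the FL-Y line. Each is the 250 bases upstream of the annotated start, 5′ to 3′ on the gene's strand, from RefSeq on GRCm38.p6. Capitals mark matches to any of 5 motifs on either strand. The TATA box was searched as TATAAA and the CCAAT box by its own letters. The GC box of Sp1-type factors was searched as GGGCGG, and the AP-1 site as TGANTCA. The motif of NF-kB, which acts downstream of the lymphotoxin beta receptor, is given by name alone. Igfbp3 lies at chr11:7213924-7214173, minus strand, Igfbp6 at chr15:102143936-102144185, plus strand, Igfbp7 at chr5:77408046-77408295, minus strand, and the first of 2 annotated Igfbp2 start sites at chr1:72824230-72824479, plus strand.
Igfbp3: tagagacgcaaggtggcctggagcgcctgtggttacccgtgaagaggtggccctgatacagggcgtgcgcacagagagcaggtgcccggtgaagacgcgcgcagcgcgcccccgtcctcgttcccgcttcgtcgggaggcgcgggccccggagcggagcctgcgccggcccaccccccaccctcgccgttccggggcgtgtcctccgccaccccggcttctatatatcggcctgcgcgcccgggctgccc
Igfbp6: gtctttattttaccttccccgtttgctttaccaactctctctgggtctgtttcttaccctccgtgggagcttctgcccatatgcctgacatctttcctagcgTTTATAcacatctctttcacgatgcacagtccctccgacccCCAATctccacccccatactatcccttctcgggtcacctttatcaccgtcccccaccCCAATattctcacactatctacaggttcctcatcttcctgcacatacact
Igfbp7: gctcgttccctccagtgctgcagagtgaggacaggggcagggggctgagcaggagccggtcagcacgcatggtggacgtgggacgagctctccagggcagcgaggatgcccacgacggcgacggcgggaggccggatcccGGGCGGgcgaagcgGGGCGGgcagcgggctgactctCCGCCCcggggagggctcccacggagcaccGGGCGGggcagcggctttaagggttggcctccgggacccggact
Igfbp2: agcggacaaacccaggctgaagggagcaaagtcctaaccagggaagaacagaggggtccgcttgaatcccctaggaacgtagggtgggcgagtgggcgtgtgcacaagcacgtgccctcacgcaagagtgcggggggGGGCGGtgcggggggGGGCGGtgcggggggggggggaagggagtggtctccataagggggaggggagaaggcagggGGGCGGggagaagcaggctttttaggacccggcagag

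The 3 windows of the genes higher in FDC shared no motif of the 5. Igfbp3 held none, Igfbp6 held 1 TATAAA match and 2 CCAAT matches, and Igfbp7 held 4 GGGCGG matches. The Igfbp2 window held 3 GGGCGG matches. Among 32851 such windows of the reference table, 32.7% held GGGCGG, 33.8% CCAAT, 12.4% TATAAA, 6.75% TGANTCA and 7.25% the NF-kB motif. The windows also differed in CpG content, with 32 CpG in Igfbp3, 26 in Igfbp7, 14 in Igfbp2 and 7 in Igfbp6, beside a median of 6 over all windows. Of the members found in the table, only Igfbp5 held the NF-kB motif, in 2 overlapping matches 196 and 195 bases before its start. Pappa was not matched.

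**Figure D1:**
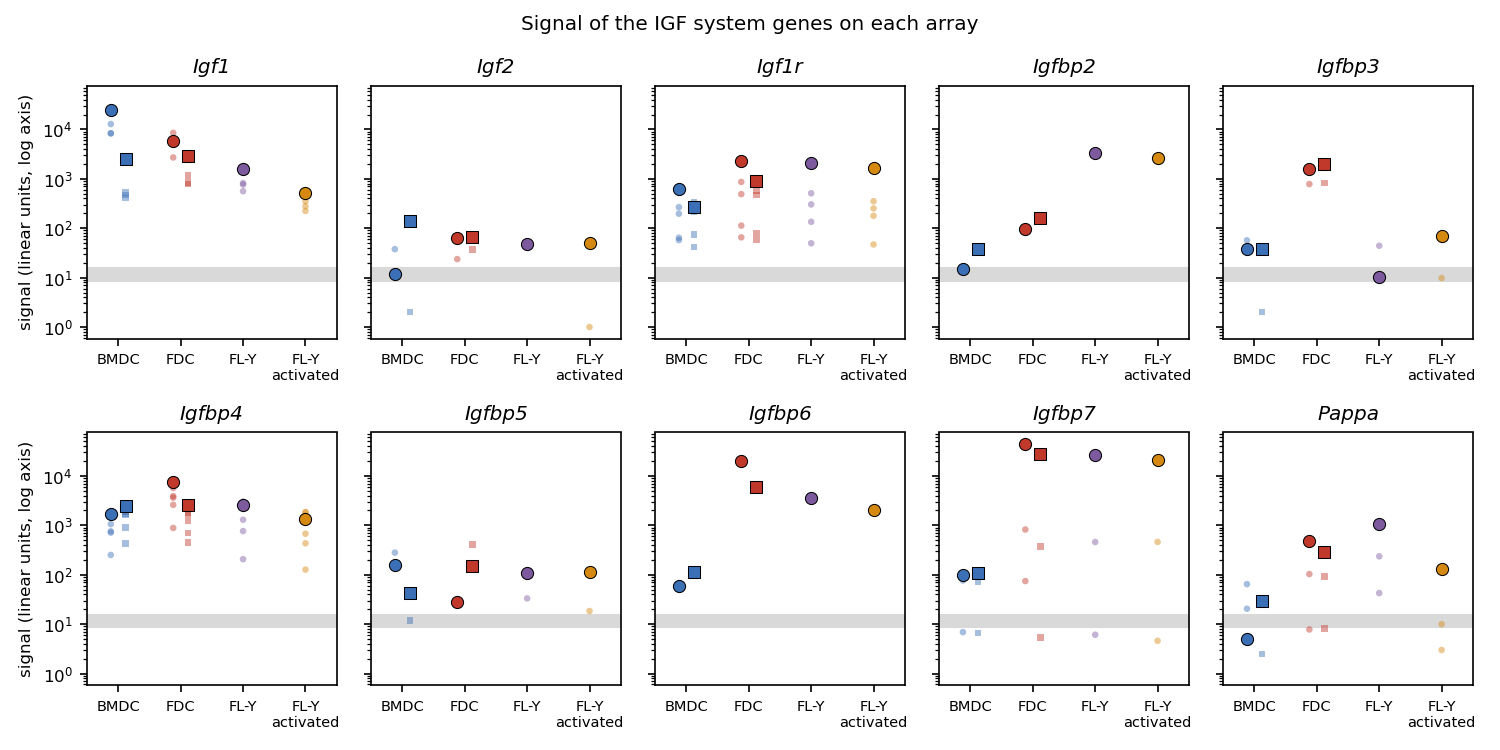
Signal of the 10 genes on each array, on a log axis in linear signal units, with all their probe sets. Large outlined points are the probe set that represents the gene and small points the others, circles stand for array 1 and squares for array 2 of BMDC (blue) and FDC (red), FL-Y is purple and activated FL-Y orange, and the grey band spans the arrays' 20th percentiles (8.7 to 15.4). Igfbp6, Igfbp7 and Pappa stand high in FDC and FL-Y, Igfbp3 in FDC and Igfbp2 in FL-Y, while Igf1 is spread between the arrays of a cell type.

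The stated question of the series is how the profiles of FDC and BMDC compare. Cultured FDC had higher signals of the binding proteins Igfbp3, Igfbp6 and Igfbp7 and of the protease Pappa, while neither ligand nor the receptor passed the test. Of the 10 members, all of which passed the filter on dim probe sets with their representative probe set, 4 rose and 0 fell at a limma adjusted p under 0.05. At an unadjusted limma p under 0.05, Igf1r and Igfbp2 were higher as well and 0 fell. Over all 12750 genes tested, 5.87% were called higher and 5.4% lower. The 10 members had a median log2 difference of 1.81, beside -0.03 for all genes tested. The FDC signals lay above both BMDC signals for 7 of 10 members and below for 0, against 28.8% and 30.4% of all genes tested. Because the members were chosen with earlier results of these data known, these shares describe the members and are no test of the group.

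Igfbp7, a secreted protein that resembles the classical binding proteins but binds IGFs weakly and is laid down in the matrix, had signals of 101 and 107 in BMDC and 44284 and 28096 in FDC (probe set 1423584_at). FL-Y had 26763 and activated FL-Y 21458. BMDC stood far below every other sample, and FL-Y lay just under the lower FDC array. The log2 difference of FDC minus BMDC was 8.23 ± 0.42 (SE, n = 2 per group; limma adjusted p = 0.00264), with 8.59 for array 1 of each and 7.86 for array 2. Here and below, the array numbers do not pair the samples. A further probe set, 1423585_at, rose by 2.68 ± 0.50 (limma adjusted p = 0.0345; 0.0769 without the filter), and over all probe sets tested 4.84% were called higher. The remaining probe set, 1437804_at, lay under the 20th percentile on 5 of 6 arrays and was not tested, so the probe sets differ widely in size.

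Igfbp6, which binds IGF2 in preference to IGF1, was at 57.8 and 114 in BMDC and at 19599 and 6029 in FDC (probe set 1417933_at). Its mean in FDC was 12814 ± 9595 (SD, n = 2), and in BMDC it was 85.7 ± 39.4 (SD, n = 2). The 2 FDC arrays differed by 1.70 on the log2 scale, and both stood above BMDC, for a log2 difference of 6.83 ± 0.68 (limma adjusted p = 0.00628). FL-Y had 3579 and activated FL-Y 2019, below both FDC arrays and above both BMDC arrays.

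Igfbp3, the main carrier of IGFs in blood, followed another order. Its signals were 37.8 and 37.9 in BMDC and 1565 and 2032 in FDC (probe set 1458268_s_at), a log2 difference of 5.11 ± 0.38 (limma adjusted p = 0.00346). The probe set 1423062_at gave 56.9 and 2.0 in BMDC and 782 and 822 in FDC, a log2 difference of 4.59 ± 0.75 (limma adjusted p = 0.0237; 0.05003 without the filter). In FL-Y the 2 probe sets were at 10.3 and 44.2, so the line had signals as low as BMDC and lacked the FDC level.

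Pappa, the metalloprotease that cuts IGFBP4, had signals of 5.1 and 29.5 in BMDC and 489 and 287 in FDC (probe set 1427633_a_at). Its log2 difference was 3.74 ± 0.56 (limma adjusted p = 0.0187), and BMDC array 1 lay under the 20th percentile, so the size depends on the offset. The call was lost without BMDC array 1 (limma adjusted p = 0.0573) or FDC array 1 (0.0579), in a range of 0.0103 to 0.0632 over the settings tried. FL-Y stood highest, at 1042. The probe set 1432591_at was not called (difference of 1.63 ± 0.78, limma adjusted p = 0.291), and 1432592_at, too dim to be tested, had the opposite order, with 20.5 and 28.8 in BMDC and 7.8 and 8.2 in FDC, a difference of -0.80.

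Igfbp4, the substrate of PAPP-A that holds IGFs away from the receptor, was well above background everywhere. Its signals were 1718 and 2475 in BMDC, 7444 and 2611 in FDC, 2538 in FL-Y and 1343 in activated FL-Y (probe set 1423756_s_at). FDC array 1 stood apart, while FDC array 2 was close to BMDC array 2. The log2 difference was 1.09 ± 0.61 (95% interval -0.44 to 2.63, limma adjusted p = 0.363), and all 6 probe sets gave differences between 0.59 and 1.09 without a call. It was 2.11 for array 1 of each cell type and 0.08 for array 2.

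Igf1r, the receptor, was at 629 and 266 in BMDC, 2289 and 911 in FDC, 2073 in FL-Y and 1642 in activated FL-Y (probe set 1452982_at). The FDC arrays lay above the BMDC arrays, by 1.84 for array 1 and 1.73 for array 2, and array 1 was higher than array 2 in both cell types. The log2 difference of 1.78 ± 0.66 did not pass (95% interval 0.13 to 3.43, limma adjusted p = 0.183). The 5 probe sets ranged from 0.25 to 1.78, and 4 of them had FDC signals above both BMDC signals.

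Igfbp2, a binding protein of fetal tissues and of many transformed cells, was low in both primary cell types, with 14.7 and 38.4 in BMDC and 97.2 and 159 in FDC (probe set 1454159_a_at). The difference between them was 1.83 ± 0.49 on the log2 scale (95% interval 0.60 to 3.07, limma adjusted p = 0.0910).

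Igf2 and Igfbp5 were dim, and the BMDC arrays disagreed for both, as did the FDC arrays for Igfbp5. Igf2, the fetal ligand, lay between 11.7 and 141 over the 6 arrays on its representative probe set (1448152_at) and between 1.0 and 40.5 on the other, and both extremes of the first came from the BMDC arrays. Its log2 difference was 0.32 ± 0.87 (95% interval -1.87 to 2.51, limma adjusted p = 0.868). Igfbp5, which binds to the matrix of fibroblasts and bone, was at 159 and 43.5 in BMDC and at 27.9 and 152 in FDC (probe set 1422313_a_at). High and low arrays occurred in both cell types, and the difference was -0.26 ± 0.86 (95% interval -2.42 to 1.90, limma adjusted p = 0.894). Its other probe set, 1452114_s_at, had 280 and 11.8 in BMDC and 30.4 and 405 in FDC, with a difference of the opposite sign, 0.64 (95% interval -3.14 to 4.43, limma adjusted p = 0.844).

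**Figure D2:**
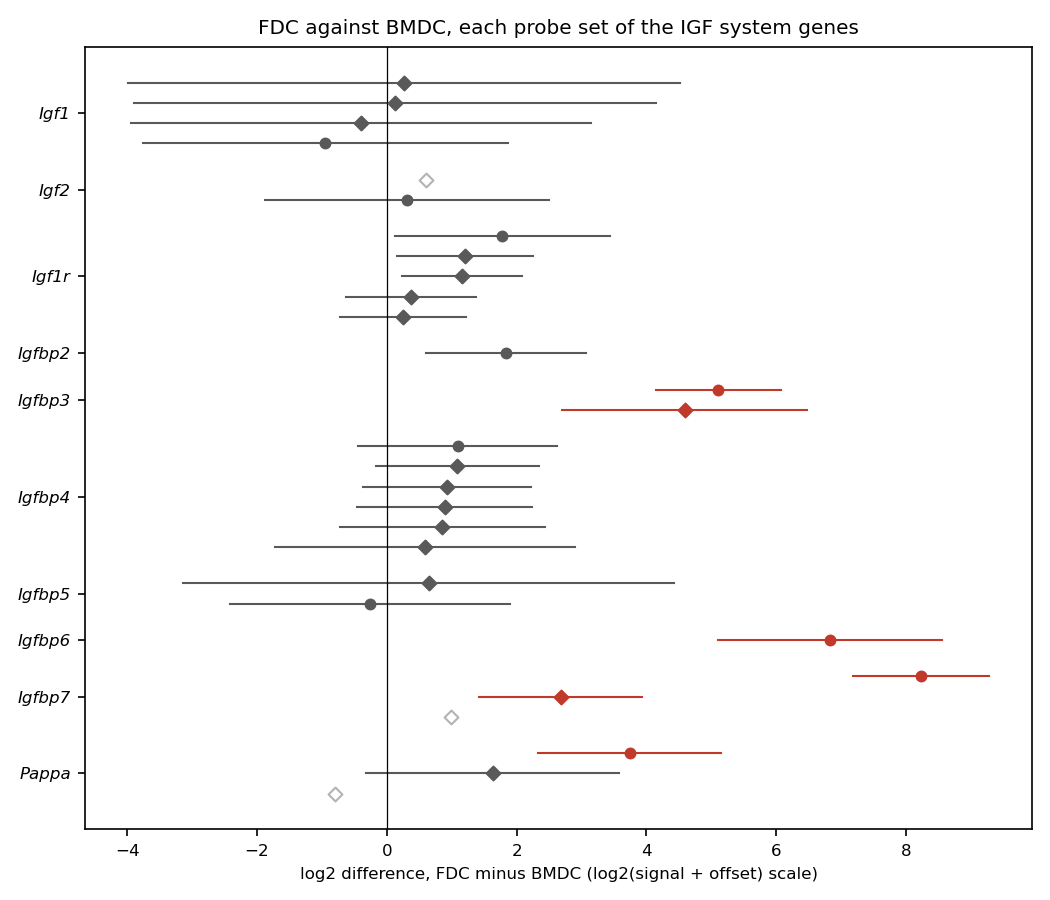
Log2 difference of FDC minus BMDC for each probe set of the 10 genes, on the log2(signal + offset) scale, with the 95% interval from limma. Circles are the probe set that represents the gene and diamonds the others, red marks a limma adjusted p under 0.05, and open grey diamonds were too dim to test. The red points, 2.68 to 8.23, belong to Igfbp3, Igfbp6, Igfbp7 and Pappa, and the intervals of Igf1 reach far to both sides of 0.

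Of the 10 genes, Igf1 showed the widest spread between the BMDC arrays. Its signals were 24636 and 2508 in BMDC, 5840 and 2848 in FDC, 1567 in FL-Y and 520 in activated FL-Y (probe set 1452014_a_at). Array 1 was higher than array 2 in both cell types, and the 2 cell types overlapped. The log2 difference of FDC minus BMDC was -0.95 ± 1.11 (95% interval -3.76 to 1.86, limma adjusted p = 0.675), with -2.07 for array 1 of each and 0.18 for array 2. The other 3 probe sets gave differences from -0.40 to 0.27, so no direction could be given for the cell types.

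All 4 Igf1 probe sets showed this spread. Array 1 exceeded array 2 by 3.29 to 4.57 on the log2 scale in BMDC and by 1.03 to 2.85 in FDC. Of 12750 genes tested, Igf1 included, 14 had as large an excess on BMDC array 1 as the representative probe set of Igf1, 1457 on FDC array 1 and 7 on both. On the same arrays the median excess of array 1 over array 2 was also taken for the marker lists. For 10 dendritic cell and macrophage markers it was 0.31 in BMDC and 0.33 in FDC. For 10 fibroblast markers it was -0.29 in BMDC and 0.83 in FDC, and for 10 FDC markers -0.04 and 0.80. For 5 smooth muscle markers it was 0.25 and -1.38, and for 6 mast cell markers 0.43 and -0.48. The 4 endothelial markers had 0.04 and -1.29. The same median was 1.25 in BMDC and 0.78 in FDC for 5 T cell markers, and 1.32 and 0.87 for 3 B cell markers. Of the 5 T cell markers, 4 lay under the 20th percentile on BMDC array 2, so their BMDC median is a difference near background. The 3 adipocyte markers had a median excess of 0.94 in BMDC and 2.68 in FDC. Their summed signal was 41505 and 38298 in BMDC and 47637 and 5780 in FDC. Most of the BMDC sum was Lpl, at 40110.6 and 38253.5 there, an excess of 0.07. The BMDC median was that of Adipoq, a defining adipocyte gene too dim to test, at 38.4 and 13.3 there. Over the 6 arrays Adipoq had signals of 4.3 to 62.0, while the fatty acid carrier Fabp4 had an excess of 4.93 in BMDC and 5.13 in FDC. Labelling controls, relative to hybridisation controls, were at 0.111 and 0.127 on the first BMDC and FDC arrays and at 0.527 and 0.332 on the second. The part of these values in the Igf1 signals was not tested.

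**Figure D3:**
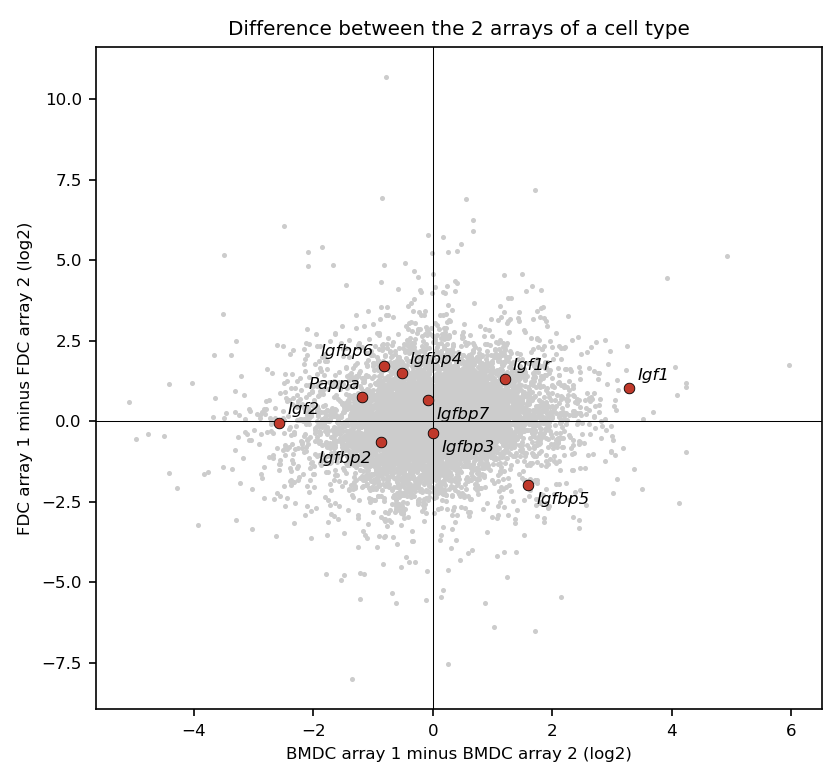
Difference between array 1 and array 2 of BMDC (x axis) and of FDC (y axis), both on the log2 scale, for 12750 tested genes (grey) and the 10 IGF system genes (red). Igf1 lies far to the right, at 3.29 and 1.03, and Igfbp5 has opposite signs in the 2 cell types.

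The FL-Y line was set against cultured FDC and against BMDC as a description, since 1 array gives no replicate check. Compared with the mean of FDC, Igfbp2 and Pappa were higher by 1 or more (log2) and Igf1, Igfbp3 and Igfbp6 lower, which makes 5 of 10 members, while 32.9% of 12601 genes differed that much (13.3% higher and 19.6% lower). The members had a median of -0.38, beside -0.10 for all those genes. Compared with BMDC, 5 members were higher (Igf1r, Igfbp2, Igfbp6, Igfbp7 and Pappa) and Igf1 lower. That makes 6 of the 9 members bright enough to compare, against 41.8% of 12592 genes (18.7% higher and 23.1% lower). Igfbp3 was too dim on these arrays. Without BMDC array 1, Igf1 was no longer lower by 1 or more. Igf1r was higher by 1 or more on its representative probe set alone (2.30), and its other probe sets gave 0.01 to 0.84. With the median over probe sets it dropped out.

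Igfbp2 had the largest excess over FDC among the 10 members. Its signal was 3345 in FL-Y and 2616 in activated FL-Y, beside 97.2 and 159 in FDC and 14.7 and 38.4 in BMDC. Both FL-Y arrays stood above all primary cells. The untreated one was 4.59 above the FDC mean on the log2 scale, or 24.2-fold, which ranked 11 among 12601 genes. Igfbp5 is the next protein-coding gene beside Igfbp2 on chromosome 1 and is read from the opposite strand, and its FL-Y signals of 109 and 112 lay within the range of the primary cells.

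Igfbp3 went the other way. FL-Y had 10.3, under its 20th percentile, against 1565 and 2032 in FDC, a log2 difference of -6.20 whose size depends on the offset, and the probe set 1423062_at gave -3.80. Igfbp6 was lower than FDC by 1.60 and Igf1 by 1.37. These 2 differences fell under 1 without FDC array 1, and only Igf1 did when arrays were rescaled to one median. Igfbp7, at -0.40, and Igf2, at -0.36, differed little from the FDC mean. For Igf1r the difference was 0.52, for Igfbp5 0.56 and for Igfbp4 -0.79, each less than the distance between the 2 FDC arrays. The other probe sets of these 3 genes did not all share the sign: the lowest and highest were -0.64 and 0.52 for Igf1r and -1.56 and 0.85 for Igfbp4, and the other Igfbp5 probe set gave -1.53. All 4 Igf1 probe sets were below the FDC mean, with differences of -2.03 to -0.87, and all 3 Pappa probe sets above it, with 1.15 to 1.44.

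Activation of FL-Y through the lymphotoxin beta receptor went with a lower signal of Pappa and of Igf1. Pappa was at 1042 before and 133 after (probe set 1427633_a_at), a log2 difference of -2.84, and 1432591_at gave a difference of -3.37; the third probe set also fell in value, from 42.6 to 3.0. Among 12204 genes bright enough to compare, 7 had a more negative difference than Pappa. The median signal of the whole array was 61.1 before and 47.9 after, which bears on the dim values.

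Igf1 was lower on all 4 probe sets, by log2 differences of -1.57 to -1.18, and went from 1567 to 520 on the representative one. All 6 Igfbp4 probe sets were also lower, from -0.92 to -0.64, and Igfbp6 had a difference of -0.82. Igfbp3 had opposite signs on its probe sets, 1.77 and -1.28, at signals of 10.3 to 69.1 on one and 44.2 to 9.8 on the other, so no direction could be given. Igf1r (-0.33), Igfbp2 (-0.35) and Igfbp7 (-0.32) differed by less, and Igf2 (0.05) and Igfbp5 (0.04) hardly at all on their representative probe sets. The other Igf2 probe set had a difference of -1.85, from 40.5 to 1.0, and the other Igfbp5 probe set one of -0.54, so these genes have no direction either. In all, 3 of 10 members differed by at least 1, Igfbp3 higher and Igf1 and Pappa lower, against 6.64% of all genes compared (1.75% higher and 4.89% lower). Without Igfbp3, which dropped out under 4 of 6 other settings, the count was 2.

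**Figure D4:**
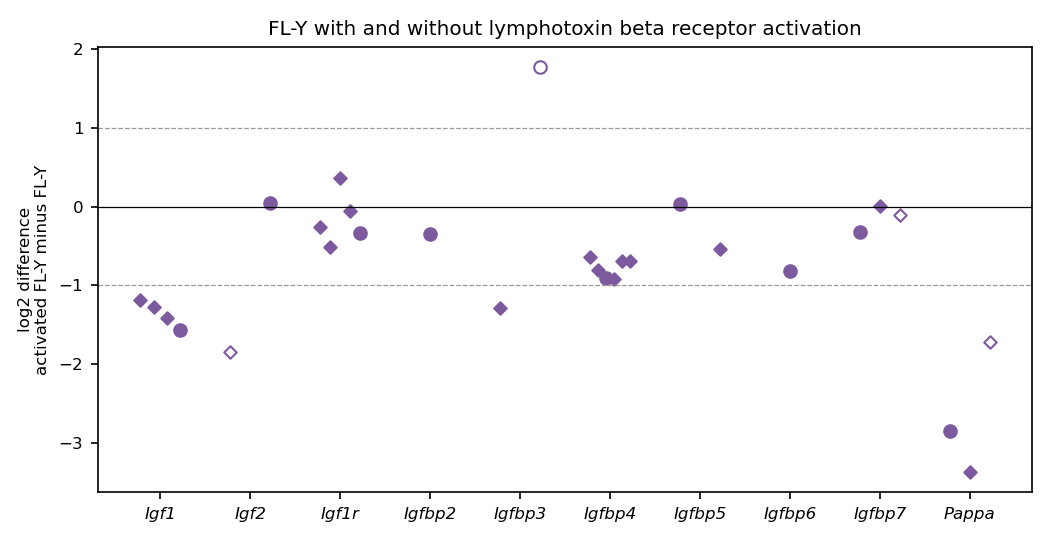
Log2 difference of activated FL-Y minus FL-Y for each probe set of the 10 genes, 1 array each. Circles are the probe set that represents the gene, diamonds the others, open symbols had a signal under the 20th percentile on at least 1 of these arrays, and dashed lines mark differences of 1. All Igf1 and Pappa probe sets lie below -1, and all Igfbp4 probe sets between -0.92 and -0.64.

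The levels of each gene may be ordered by cell type. Igfbp6 and Igfbp7 ran from FDC through FL-Y and activated FL-Y to BMDC; for both, only the step to BMDC exceeded the distance between the FDC arrays. Pappa ran from FL-Y through FDC and activated FL-Y to BMDC. Igfbp2 ran from FL-Y and activated FL-Y, 0.35 apart, through FDC to BMDC. Igf1 ran from BMDC through FDC and FL-Y to activated FL-Y, where BMDC and FDC did not differ beyond their spread. Igf1r had FL-Y, activated FL-Y and FDC close together above BMDC. In the order of Igfbp5 no neighbours differed beyond the spread between arrays of a cell type. For Igf2 and Igfbp4 every step was under the wider of the BMDC and FDC spreads. For Igf2 the FDC arrays lay close together, and activated FL-Y, BMDC and FL-Y all lay further from FDC than that. For Igfbp4 activated FL-Y lay further from BMDC than the BMDC arrays lay from each other. Igfbp3 was high in FDC. Its signals in the other samples were between 10.3 and 69.1 on the representative probe set and between 2.0 and 56.9 on the other.

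The genes with the most similar profiles were sought by the root mean square distance of centred log2 values over the 6 arrays. For Igfbp7 they were Aebp1 (0.15), the lysyl oxidase Loxl1 (0.22) and Fstl1 (0.23). For Igfbp6 they were the laminin chain Lama4 (0.41), the collagen-modifying enzyme Plod2 (0.43) and the peptide hormone Adm (0.48). Igfbp3 was nearest to the protease inhibitor Tfpi2 (0.57), Nudt6 (0.59) and Ifit3 (0.70), and Pappa to the cadherin Fat4 (0.54), Rasl11a (0.61) and Adamts12 (0.63). The neighbours of Pappa were all lower after activation, with Fat4 at 297 and 86.5, Rasl11a at 1711 and 222 and Adamts12 at 1272.5 and 516.6. The activated array was among the 6 by which they were chosen. For Igf1 the nearest genes were Cited4 (0.52), Gnaz (0.52) and Mfap3l (0.57), all highest on BMDC array 1. The neighbours of Igf2, Bpifb1 (0.19), Pth2 (0.20) and the imprinted gene Mest (0.20), had signals between 15.8 and 232 and were as dim as Igf2 itself. All these distances rest on the same 6 arrays and carry no test.

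The other genes of the pathway were read from 5 lists with 54 genes, of which 48 were analysed here and 42 passed the filter. With limma 6 rose and 1 fell in FDC against BMDC, beside 5.87% and 5.4% of all genes tested, and the median difference was 0.45. In the intracellular branch, of 24 genes for adaptors, PI3K, Akt and mTOR signalling, 2 rose and 0 fell. The adaptor Irs1 was at 38.0 and 97.1 in BMDC, 336 and 636 in FDC and 1453 in FL-Y. Its log2 difference of 2.65 ± 0.57 was just above the threshold (limma adjusted p = 0.0506), and it was called under some other settings, such as quantile normalization. Akt1, the kinase downstream of the receptor, was at 3367 and 2733 in BMDC, 2742 and 2433 in FDC, 2794 in FL-Y and 2797 after activation.

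The 2 adaptors that rose were Grb14 and Grb10, both known to bind and restrain the insulin and IGF1 receptors. Grb14 was at 6.9 and 10.1 in BMDC, under the 20th percentile, and at 4406 and 1120 in FDC, with a log2 difference of 6.63 ± 0.70 (limma adjusted p = 0.00723), and FL-Y had 345. Its size depended on the processing, with 2.77 for the median over its probe sets and 8.06 without the offset. Grb10, an imprinted gene, had a mean of 87.7 ± 3.25 (SD, n = 2) in BMDC and was at 2719 and 713 in FDC and 1853 in FL-Y. Its difference was 3.79 ± 0.69 (limma adjusted p = 0.0323), and its call was lost without BMDC array 1 (0.0901) or BMDC array 2 (0.0968), without the filter (0.0672) and without the offset (0.0585). The median over its probe sets gave 1.72.

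Among 6 tested proteases of the binding proteins and their inhibitors, 2 rose and 0 fell, beside 5.87% and 5.4% of all genes tested. At an unadjusted limma p under 0.05, Adam12 (4.53) and Adam9 (1.29) were also higher, without a call. Adam12 was at 7.6 and 179 in BMDC and 1518 and 1448 in FDC (limma adjusted p = 0.0595). It was called under some other settings, such as arrays rescaled to one median. Htra1, a serine protease that cuts IGFBP5, was at 84.9 and 98.0 in BMDC and 3094 and 6462 in FDC, with 5059 in FL-Y. Its log2 difference was 5.41 ± 0.49 (limma adjusted p = 0.00482). Stc1, whose protein inhibits PAPP-A, was at 41.4 and 21.2 in BMDC and 399 and 784 in FDC, a difference of 3.69 ± 0.51 (limma adjusted p = 0.0148). It lost its call without BMDC array 2 (0.0572) and when the median of all probe sets of the gene was used (limma adjusted p = 0.116).

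Growth hormone acts on Igf1 through its receptor, Jak2 and Stat5. Of the 6 genes in this list 1 rose and 1 fell, beside 5.87% and 5.4% of all genes tested. Their median difference was -2.07. At an unadjusted limma p under 0.05, Jak2 (-1.96), Socs2 (-2.87) and Cish (-2.18) were also lower, without a call. The receptor Ghr was at 112 and 62.3 in BMDC, 2785 and 3887 in FDC, 2677 in FL-Y and 3087 after activation, a log2 difference of 5.07 ± 0.45 (limma adjusted p = 0.00475). Stat5a, a transcription factor of that pathway, was at 2179 and 1979 in BMDC, 358 and 363 in FDC and 434 in FL-Y. It fell by 2.48 on the log2 scale (SE 0.37, limma adjusted p = 0.0182), and lost the call without any 1 of the 4 arrays (limma adjusted p from 0.0502 to 0.0834) and, just above the threshold at 0.05003, without the filter.

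Of 3 tested genes in the list of Igf2 mRNA-binding proteins and other genes linked to Igf2, Hmga2 rose and 0 fell. Over all genes tested, 5.87% were called higher and 5.4% lower. Hmga2, a chromatin protein of fetal and transformed cells, was at 78.2 and 54.3 in BMDC, 3207 and 15245 in FDC and 5300 in FL-Y, a difference of 6.46 ± 0.79 (limma adjusted p = 0.0106). Of 3 tested ligands, receptors and carriers 0 were called with limma, and 0 had an unadjusted p under 0.05. Igf2r, which takes up IGF2 for degradation, was at 1649 and 2726 in BMDC and 1358 and 2194 in FDC, a difference of -0.29 ± 0.47 (95% interval -1.49 to 0.90). The insulin receptor Insr had a difference of -0.44 ± 0.68 (95% interval -2.14 to 1.27). In FL-Y, 13 of 43 pathway genes differed from FDC by at least 1, 6 higher and 7 lower, beside 32.9% of all genes, and after activation 1 of 43 did, beside 6.64%.

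**Figure D5:**
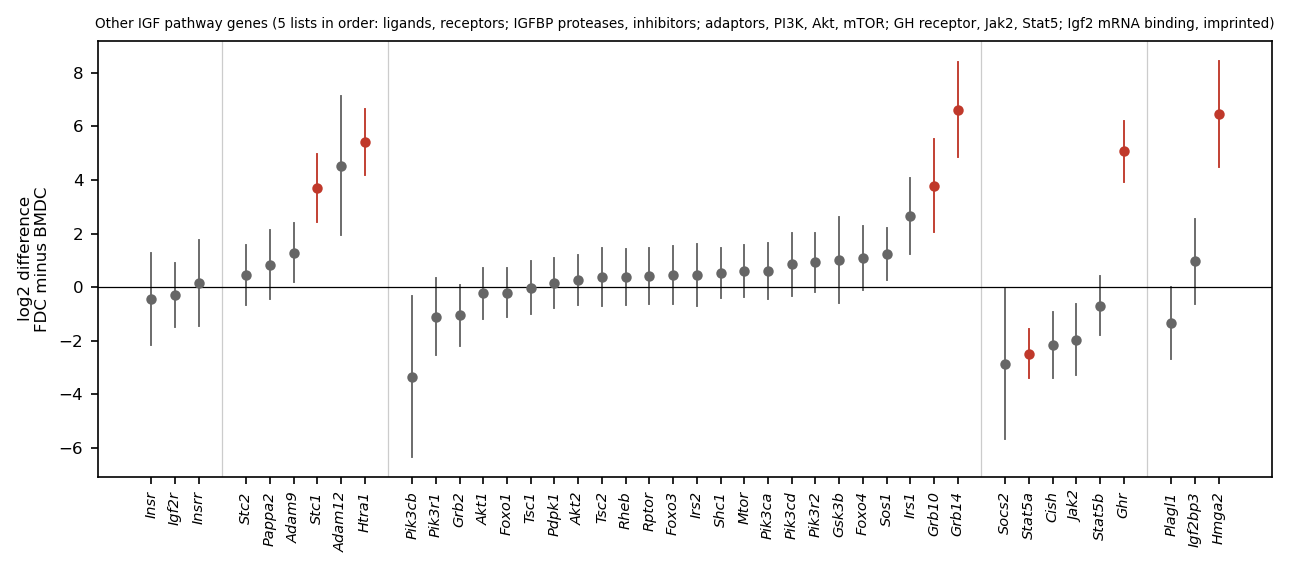
Log2 difference of FDC minus BMDC for the 42 tested pathway genes in 5 lists separated by grey lines, with 95% intervals from limma. Red marks a limma adjusted p under 0.05, and the 7 red genes are Stc1, Htra1, Grb10, Grb14, Ghr and Hmga2 above 0 and Stat5a below.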

How the data were processed

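Per the labels, total RNA was labelled with biotin using a one-cycle kit. The deposited table holds 1 linear intensity value per probe set and array, scaled by the authors to a trimmed mean of 500.0 on every array, for 45101 probe sets, 64 of them controls; the sources used here do not give the summarising program or its handling of background. Of the others, 34945 had 1 gene in the platform annotation and were named, 932 had several and 9160 had none, and a RefSeq table for GRCm38.p6 gave sequences.

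Values were taken as log2(signal + 14.2), the median of the arrays' 20th percentiles, which understates differences of dim genes. limma 3.58.1 in R 4.3.3 was fitted on the 2 FDC and 2 BMDC arrays, over the 27022 probe sets with a mean above the 40th percentile (a signal of 46.4), with Benjamini-Hochberg adjustment over all of them, two-sided, threshold 0.05. An exact permutation test of 2 against 2 arrays cannot go below 0.333. FL-Y comparisons have no test: a difference of 1 on the log2 scale was counted, among genes above the 40th percentile of the arrays compared. Precision is limited by the number of arrays.

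All members were named, with up to 4 called genes per pathway list (the 2 largest differences where none was called) and the 3 nearest profiles of Igf1, Igf2 and each called member. Akt1, Irs1, Jak2, Socs2, Cish, Adam9, Adam12, Adipoq, Fabp4, Lpl, Cr2, Vcam1 and Cxcl13 were named after their values were seen. Members and lists were chosen with earlier results of these data known. Offset, scaling, filter, probe set rule, array number as a block and each array left out were varied.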

Additional observations from a re-analysis of the deposited data

How the results depend on the processing

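The 4 members called higher in FDC were also 4, and the same genes, with quantile normalization, an offset at the 40th percentile, one median, no filter, the median over probe sets, or the replicate block. Igfbp3, Igfbp6 and Igfbp7 kept their call under all 11 alternatives on their representative probe sets, and Pappa lost it without an offset (limma adjusted p = 0.0632), without BMDC array 1 and without FDC array 1; leaving out 1 array gave 3 to 4. The count of pathway genes lower in FDC, 1 as reported, was 2 with an offset at the 40th percentile, 2 with one median, 0 without the filter, 3 with the median over probe sets, 2 with the replicate block, and 0 to 1 with 1 array left out. For pathway genes higher in FDC, 6 as reported, the count was 5 to 8 over the settings that kept all 4 arrays. Signs turned only where no call was made. With the median over probe sets Igf1 was at 0.030, Igfbp5 at 0.19 and Insr at 0.36. With 1 array left out, Igf1 ranged from -2.59 to 0.70, Igf2 from -0.97 to 0.34, Igfbp5 from -1.25 to 0.73, Insr from -1.36 to 0.49 and Igf2r from -0.65 to 0.065. Igf1, Igf2 and Igfbp5 turned without BMDC array 1, Igfbp5 and Igf2r without FDC array 1, Igf2r without BMDC array 2 and Insr without FDC array 2. Igf2 without BMDC array 2 or with the median over probe sets, and Igfbp2 without FDC array 2, were too dim to pass the filter and gave no value. The causes were not tested. BMDC array 1 carries no number in its label, so the array numbers do not pair the samples. The block was set by array number, and the labelling controls were lower on both first arrays than on the second. With this block 4 members were higher and 0 lower. In the FL-Y comparisons the number of members past a difference of 1 lay between 4 and 7 against FDC, 5 and 7 against BMDC, and 2 and 3 for activation.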
